A study of Mus musculus with 16 samples.

Results

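The stem-like T cell factors described here are 6 genes, Tcf7, Lef1, Tox, Satb1, Bach2 and Myb, which were picked by name among the 31053 genes counted in lung and mesenteric lymph node (MLN) cells and the 32285 genes counted in a separate experiment on lymph node cells. All 6 were present in both count tables and passed the filter on low counts in every comparison. The group name refers to what these factors are known for in other T cell settings, and the 6 genes did not move together as 1 set in these cells.

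Nuclear factors of this kind hold T cells in a resting, self-renewing or precursor state, and many of them are lost as cells take on effector functions. TCF-1, the product of Tcf7, and LEF-1 are related DNA-binding proteins that can act with beta-catenin at the end of the Wnt pathway. TCF-1 is also known to promote Gata3 early in Th2 differentiation and Bcl6 in follicular helper T (Tfh) cells, so its level in IL-4-producing cells is read in both contexts.

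The cells came from IL-4eGFP reporter (4get) mice on the C57BL/6 background, in which eGFP marks cells with a transcribed Il4 locus, and all mice had been infected with 500 larvae of the hookworm Nippostrongylus brasiliensis (Nb) 10 days earlier, so there was no uninfected group. In the first experiment, CD4+IL-4eGFP+ cells were sorted from lung and MLN of 2 mice aged 13 weeks, giving 1 library per organ and mouse. The perfused lungs still held some intravascular cells. Lungs were digested with a dissociation kit and their cells purified on percoll, whereas lymph nodes were only mashed. Organ and tissue preparation therefore cannot be told apart in lung against MLN. In the second experiment, CD4+IL-4eGFP+ and CD4+IL-4eGFP- cells were sorted from the lung-draining mediastinal lymph node (medLN) and MLN of 2 other mice aged 10 weeks. Organ and mouse were told apart by 4 hashtag antibodies. Each gate of the second experiment was 1 library, so gate and library cannot be told apart there. The 4 lung and MLN libraries held 4714 cells with paired T-cell receptor (TCR) chains (416 to 2462 each), and the 8 hashtag samples held 16748 cells (1992 to 2249 each). A Cd3e unique molecular identifier (UMI) was found in 94.9% to 99.9% of the cells of a sample and a Cd4 UMI in 45.1% to 78.4%.

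Levels are given in CPM, the UMIs of a gene scaled so that every sample has the same total outside the TCR genes, where 1 sample is all cells of 1 organ, gate and mouse summed (2789854 to 14442133 UMIs per sample). Such a sum cannot tell fewer expressing cells from less RNA per cell. Shares of cells with a UMI are also given, after thinning each cell to 2000 UMIs. A share of this kind also falls when each cell holds less RNA of the gene, so it cannot tell them apart either. Cells with fewer UMIs were left out of these shares, 8 to 53 per lung or MLN sample and 176 to 268 per node sample. Exact Clopper-Pearson 95% intervals cover counting error only. Median UMIs per cell were 6910 and 5765.5 in the lung libraries and 4980 and 4971 in the MLN libraries. They were 3583.5 and 3458 in the IL-4eGFP+ and IL-4eGFP- node libraries, before the hashtag filter. Few barcodes were kept in more than 1 library, at most 8 of any lung and MLN pair. In the 2 node libraries 147 barcodes were shared before the hashtag filter (1.57% of the smaller). Leaving out the barcodes kept in more than 1 library changed no call for the 6 factors. No sorted population here is known to lack these factors, so low shares cannot be set against a background of free RNA.

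Tcf7 encodes TCF-1 and lies on the reverse strand of chromosome 11 (GRCm38 chr11:52252371-52283014). In IL-4eGFP+ cells its level was 132 and 160 CPM in the lung of mouse 1 and mouse 2 and 588 and 589 CPM in their MLN. Both lung samples were far below both MLN samples, and the MLN replicates were nearly equal. In the second experiment Tcf7 was at 502 and 511 CPM in IL-4eGFP+ medLN, 546 and 494 CPM in IL-4eGFP+ MLN, 493 and 473 CPM in IL-4eGFP- medLN and 502 and 535 CPM in IL-4eGFP- MLN. Both IL-4eGFP- medLN samples lay just below the other 6 node samples, and the other 3 node groups overlapped. The experiments were counted and normalized separately, so their levels are set side by side without a test. After thinning, a Tcf7 UMI was found in 18.4% (16.1% to 20.8%) and 24.3% (20.2% to 28.7%) of lung cells but in 65.6% (63.7% to 67.5%) and 65.8% (62.3% to 69.2%) of MLN cells, against 36.8%, 45.2%, 85.0% and 83.7% unthinned. The lung therefore held a smaller share of cells with a detected Tcf7 UMI in both mice.

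Lef1 encodes LEF-1, the closest relative of TCF-1 in T cells (chr3:131110471-131224356, forward strand). Its level was 48.7 and 74.2 CPM in the 2 lung samples and 161 CPM in each MLN sample of the first experiment. IL-4eGFP+ node cells had 176 and 166 CPM in medLN and 210 and 177 CPM in MLN, and IL-4eGFP- node cells had 498 and 471 CPM in medLN and 560 and 535 CPM in MLN. Lef1 was thus lowest in lung, intermediate in every IL-4eGFP+ node sample and highest in every IL-4eGFP- sample, with no overlap between these 3 levels. A Lef1 UMI was found after thinning in 29.2% to 35.2% of the cells of the IL-4eGFP+ node samples and in 57.2% to 63.5% of those of the IL-4eGFP- samples.

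Bach2 encodes a repressor that is known to hold back effector programmes, Th2 cytokines among them (chr4:32238804-32586108, forward strand). It was at 9.07 and 7.89 CPM in lung and 5.12 and 4.49 CPM in MLN, which are only 77, 22, 74 and 20 UMIs. In the nodes it was at 18.0 and 18.4 CPM in IL-4eGFP+ medLN, 12.99 and 18.2 CPM in IL-4eGFP+ MLN, 107 CPM in each IL-4eGFP- medLN sample and 107 and 111 CPM in IL-4eGFP- MLN. IL-4eGFP- samples were all above IL-4eGFP+ samples, and medLN and MLN overlapped or lay next to each other within each gate. After thinning, 18.6% to 20.1% of the cells of IL-4eGFP- samples and 3.16% to 4.58% of those of IL-4eGFP+ node samples held a Bach2 UMI.

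Myb encodes c-Myb, a factor of progenitors that is also known from self-renewing CD8+ T cells (chr10:21124935-21160984, reverse strand). Its level was 7.66 and 5.38 CPM in lung, the lowest group, and 35.0 and 35.3 CPM in MLN. IL-4eGFP+ node samples had 36.4 and 46.0 CPM in medLN and 40.3 and 47.0 CPM in MLN, and IL-4eGFP- samples had 17.4 and 20.7 CPM in medLN and 25.9 and 18.6 CPM in MLN. The nodes overlapped within each gate, and all IL-4eGFP+ node samples were above all IL-4eGFP- samples, the opposite order to that of Lef1 and Bach2.

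Tox, which encodes a nuclear factor needed for CD4+ T cell development and known from Tfh and chronically stimulated T cells (chr4:6686353-6991557, reverse strand), was at 80.0 and 77.8 CPM in lung and 179 and 200 CPM in MLN. Node samples had 104 and 109 CPM in IL-4eGFP+ medLN, 105 and 95.8 CPM in IL-4eGFP+ MLN, 77.3 and 71.7 CPM in IL-4eGFP- medLN and 78.8 and 59.1 CPM in IL-4eGFP- MLN. The IL-4eGFP+ node samples were above the IL-4eGFP- samples, and the organs overlapped within a gate. Satb1 encodes a chromatin organizer that folds loci such as the Th2 cytokine cluster (chr17:51736187-51833290, reverse strand). It was at 173 and 135 CPM in lung and 128 and 129 CPM in MLN, and was the only factor besides Bach2 with both lung samples above both MLN samples. In the nodes it was at 234 and 227 CPM in IL-4eGFP+ medLN, 261 and 253 CPM in IL-4eGFP+ MLN, 291 and 279 CPM in IL-4eGFP- medLN and 268 and 285 CPM in IL-4eGFP- MLN. All IL-4eGFP- samples were above all IL-4eGFP+ samples for Satb1, by a small margin.

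**Figure D1:**
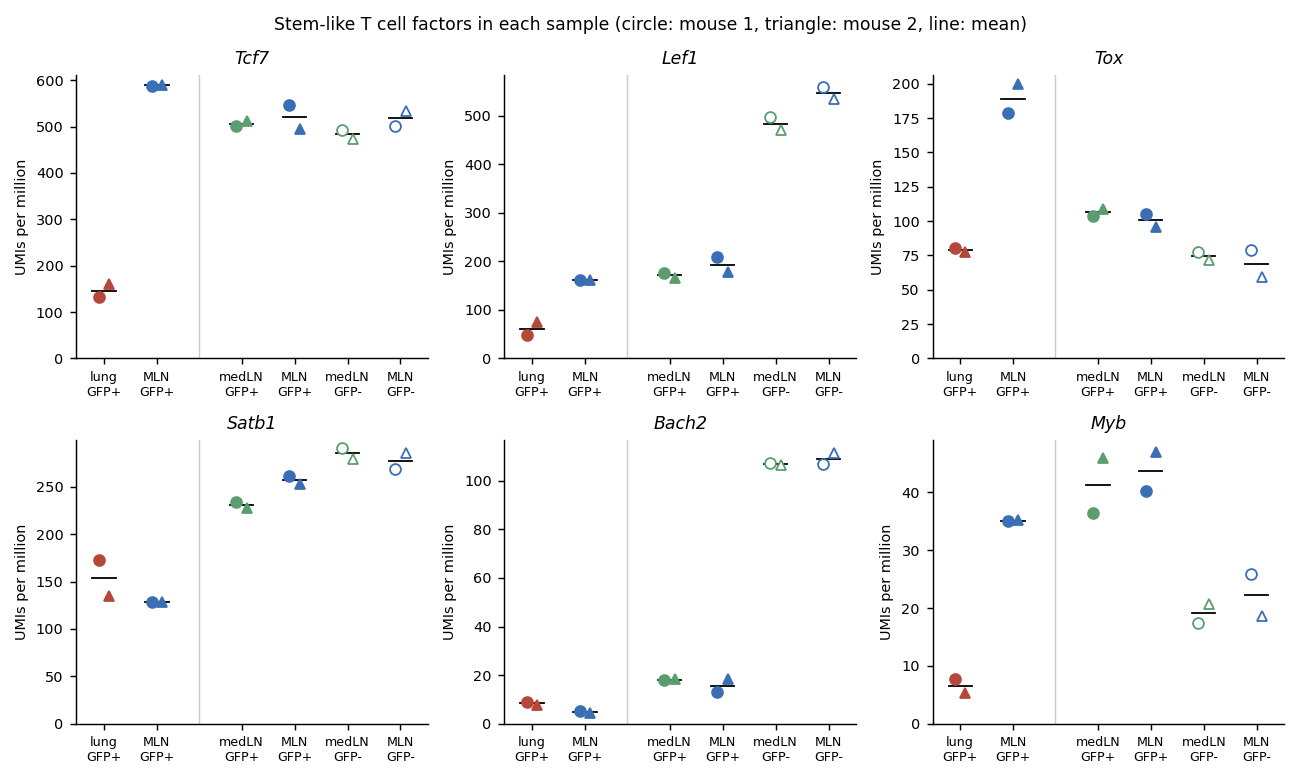
Level of each factor (CPM, linear axis from 0) in every sample, with circles for mouse 1, triangles for mouse 2 of the same experiment and a line at the mean of the 2. GFP+ and GFP- stand for IL-4eGFP+ and IL-4eGFP-, and the grey line divides the lung and MLN experiment from the node experiment. Tcf7 was low in lung (132 and 160 CPM), whereas Lef1 and Bach2 were highest in the IL-4eGFP- samples, at 471 to 560 and 107 to 111 CPM.

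Several of these genes share genomic sequence with other annotated transcripts, and whether the counting used strand is not stated in the sources used here. Tcf7 overlaps the same-strand Gm26551 (330 UMIs in lung and MLN) and Lef1 overlaps the antisense Gm43352 (291 UMIs in lung and MLN, 1385 in the nodes), so counts of these pairs are uncertain to that extent. Bach2 overlaps the antisense Bach2os, with 10 and 239 UMIs.

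The sequence before the transcription start is shown for 3 factors, because Lef1 and Bach2 had the strongest gate differences and Myb the opposite one. Each window is the 250 bases before a RefSeq start (GRCm38.p6), holds no annotated exon and is written 5' to 3' on the strand of the gene. Capitals mark matches, on either strand, to 7 motifs. Those with a match were CTTTGA for TCF/LEF factors, CCGGAA for ETS factors, GGAAA for NFAT and AACNG for MYB. No match was found in these windows for AGATAA of GATA factors, TGTGGT of RUNX factors or TGANTCA of AP-1 and BACH factors. The Lef1 window (chr3:131156044-131156293) is that of the innermost of 4 annotated starts. Start 3 of Lef1 also had a window without an exon, which is not shown. The Bach2 window is chr4:32417185-32417434 and the Myb window is chr10:21160985-21161234. The Lef1 and Bach2 windows lie inside the gene positions given above, before internal starts.
Lef1: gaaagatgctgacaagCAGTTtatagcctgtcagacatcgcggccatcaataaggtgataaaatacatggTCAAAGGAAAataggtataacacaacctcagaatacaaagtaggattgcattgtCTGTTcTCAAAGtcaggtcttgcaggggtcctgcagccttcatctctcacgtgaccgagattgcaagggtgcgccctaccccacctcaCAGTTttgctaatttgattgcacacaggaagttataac
Bach2: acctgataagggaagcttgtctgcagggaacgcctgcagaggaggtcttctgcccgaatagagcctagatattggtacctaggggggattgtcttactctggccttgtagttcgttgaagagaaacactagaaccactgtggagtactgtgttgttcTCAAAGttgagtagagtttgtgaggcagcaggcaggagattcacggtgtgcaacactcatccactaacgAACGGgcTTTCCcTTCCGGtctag
Myb: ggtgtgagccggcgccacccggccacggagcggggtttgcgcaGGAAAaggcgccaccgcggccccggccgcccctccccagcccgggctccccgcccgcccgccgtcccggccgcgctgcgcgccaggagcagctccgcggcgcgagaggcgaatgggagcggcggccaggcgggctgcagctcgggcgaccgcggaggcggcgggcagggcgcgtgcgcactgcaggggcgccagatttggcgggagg
The Lef1 window held 2 TCF/LEF matches, at 180 and 120 bases before the start, the first of them sharing a base with an NFAT match. The Bach2 window held 1 TCF/LEF match at 93 bases and 1 ETS match at 11 bases before the start, and the Myb window held a single NFAT match at 207 bases. Among all 32851 promoters of the same length, 13.8% held a TCF/LEF match, 12.03% an ETS match, 55.6% an NFAT match, 74.2% a MYB match, 9.99% a GATA match, 14.05% a RUNX match and 6.75% an AP-1 and BACH match, so these matches describe the letters only. RefSeq windows were found for 5 of the 6 factors, and no window of Tcf7 or Satb1 held a TCF/LEF match, nor did those of the other 3 starts of Lef1.

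The first comparison asked how the factors of IL-4eGFP+ cells differed between a peripheral organ and a lymph node. Lung and MLN cells were also prepared differently, and the part of this in the differences was not tested. Tcf7, Lef1, Tox and Myb were lower in lung than in MLN, and Bach2 was higher. By edgeR's quasi-likelihood test on the summed counts (2 against 2 samples, Benjamini-Hochberg adjustment over 10588 genes), Myb fell by 2.17 on the log2 scale (SE 0.20, adjusted p = 4.1e-05) and Tcf7 by 1.89 (SE 0.12, adjusted p = 4.06e-06), a 3.71-fold lower level in lung. Lef1 fell by 1.30 (SE 0.15, adjusted p = 0.000181) and Tox fell by 1.11 (SE 0.12, adjusted p = 0.000137). Bach2 rose by 0.97 (SE 0.26, adjusted p = 0.0212), on the few UMIs given above. Satb1 had a difference of 0.42 (SE 0.16, adjusted p = 0.0693), which did not pass the threshold. With the mouse as block it did (adjusted p = 0.0122). So 5 of 6 factors passed the test, where 31% of all genes did (17% higher and 14% lower in lung), with 1 factor higher and 4 lower.

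The calls for Tcf7, Lef1, Tox and Myb held in all 15 alternative settings, with Tcf7 between -2.63 and -1.82. The largest of these Tcf7 differences came with the migrating/naive-like clusters described below left out, a setting added after the data were seen, in which Lef1 was at -1.81 and Myb at -2.95. Bach2 was not called in 5 settings: with DESeq2 (adjusted p = 0.175), without lung replicate 1 (0.214), without MLN replicate 1 (0.0961) or 2 (0.102), and without cells holding a B cell or myeloid marker UMI (0.135). Satb1 was at 0.13 (adjusted p = 0.492) without lung replicate 1 and at 0.63 (adjusted p = 0.000982) without lung replicate 2.

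Myeloid markers moved with the organ, since 6 of 7 were detected in each MLN library (summed level 26.8 to 57.5 CPM) and at most 1 of 7 in a lung library (0 to 0.118 CPM). The B cell list was at 240 to 264 CPM in MLN and 93.7 to 127 CPM in lung, nearly all of it Ighm, and Ms4a1 and Ebf1 were at 0 in all 4 libraries. Without the cells holding such a UMI, the differences were as large for Tcf7 (-1.95), Lef1 (-1.46), Tox (-1.14) and Myb (-2.62). This setting left out many cells, keeping 922 of 2462 and 259 of 754 in MLN 1 and MLN 2. In lung 1 and lung 2 it kept 642 of 1082 and 237 of 416.

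Within the same gate, the medLN and MLN samples of the second experiment asked whether the site of the node mattered. None of the 6 factors passed the test in IL-4eGFP+ cells, where 1.28% of 11263 genes did. The edgeR differences, medLN minus MLN, ran from -0.19 for Lef1 (95% interval -0.37 to -0.00089) to 0.20 for Bach2 (-0.17 to 0.57). Unadjusted p-values were under 0.05 for 2 factors, Lef1 and Satb1, and DESeq2 also called 0. In IL-4eGFP- cells again 0 of 6 passed, against 0.178% of 10684 genes, with 0 by DESeq2 and unadjusted p-values under 0.05 for Tcf7 and Lef1. Lef1 there was lower in medLN in both mice, by 61.8 and 64.1 CPM, and its difference of -0.23 (SE 0.051, 95% interval -0.34 to -0.12) had an edgeR adjusted p of 0.161, which became 0.0218 with the mouse as block. It was also called without MLN replicate 2 (adjusted p = 0.0115) and without medLN replicate 1 (0.0351), and Tcf7 was called without MLN replicate 1 (-0.22, adjusted p = 0.0493). Treg markers moved with the node in the same cells, at a summed level of 464 to 553 CPM in medLN and 343 to 353 CPM in MLN with 5 of 5 detected and 2 of 5 called higher in medLN. The Treg-like cluster described below held 268 of 2167 and 334 of 2091 IL-4eGFP- medLN cells of mouse 1 and mouse 2. In MLN it held 292 of 2249 and 286 of 2167 cells. The part of these markers or cells in the Lef1 difference was not tested.

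The test of the difference between the gates in this medLN against MLN contrast called 0 of 6 factors and 0.156% of 11535 genes, and no factor had an unadjusted p under 0.05 by edgeR or a call by DESeq2. The 95% interval of this difference was widest for Myb (-0.33 to 0.70), was -0.05 to 0.29 for Tcf7 and was narrowest for Satb1 (-0.31 to 0.02), on the log2 scale.

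The gate comparison within the nodes gave the strongest differences of Bach2 and Lef1. Bach2 was lower in IL-4eGFP+ cells by 2.86 on the log2 scale (SE 0.085, adjusted p = 7.15e-10), a 7.28-fold difference, and Lef1 was lower by 1.69 (SE 0.048, adjusted p = 5.85e-10) by edgeR on 4 against 4 samples. The 4 samples of each gate were medLN and MLN of the same 2 mice, which this fit took as independent. Each gate was 1 library, so the p-values do not separate gate from library. Satb1 was lower by 0.40 (SE 0.038, adjusted p = 4.16e-06). Myb was higher by 0.86 (SE 0.12, adjusted p = 7.67e-05), as was Tox by 0.34 (SE 0.074, adjusted p = 0.00207). All 6 factors passed the test, as did 62.1% of 11535 genes (31.8% higher and 30.3% lower in IL-4eGFP+ cells), so that a call in this comparison is common.

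Tcf7 passed too, with a fitted difference of -0.15 (SE 0.038, adjusted p = 0.00501), but its direction was not settled. The CPM of the 4 IL-4eGFP+ samples (494 to 546) overlapped those of the 4 IL-4eGFP- samples (473 to 535) and had the higher mean, while the fit scales libraries by TMM, the trimmed mean of M-values. The difference was 0.18 (adjusted p = 0.00113) without the cycling clusters. It was 0.29 (adjusted p = 0.00019) without the naive-like clusters and 0.03 (adjusted p = 0.635) without both naive-like and Treg-like clusters, 2 settings added after the data were seen. Lef1 and Bach2 were called in all 18 alternatives, with Lef1 between -1.75 and -1.08 and Bach2 between -3.02 and -2.41. The settings without naive-like clusters kept the IFN-like cluster 5 described below, with 92 to 235 cells of each IL-4eGFP- sample. Finer clustering drew from it a cluster of 834 cells with Lef1 (600 CPM) and Bach2 (95.6 CPM) near the naive-like levels. These settings thus did not remove all cells of that kind, and the gate difference without them was not tested. Without the naive-like clusters 3 of 6 factors stayed past the threshold, and Satb1 (-0.05, adjusted p = 0.487), Tox (0.10, adjusted p = 0.325) and Myb (0.07, adjusted p = 0.665) did not. Without both naive-like and Treg-like clusters Myb was lower in IL-4eGFP+ cells (-0.34, adjusted p = 0.0453), a call in the opposite direction, and Tox (0.22, adjusted p = 0.054) was not called.

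Myeloid markers were also higher in the IL-4eGFP+ node samples (summed level 28.6 to 118 CPM, 7 of 7 detected) than in the IL-4eGFP- samples (4.26 to 23.6 CPM), and the cycling markers were at 1135 to 1433 CPM against 142 to 254 CPM. All 6 factors kept their calls and directions without cells holding a B cell or myeloid marker UMI. That setting kept 988 to 1308 cells of an IL-4eGFP+ sample and 1208 to 1299 of an IL-4eGFP- sample. Tcf7 without the cycling clusters is given above.

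**Figure D2:**
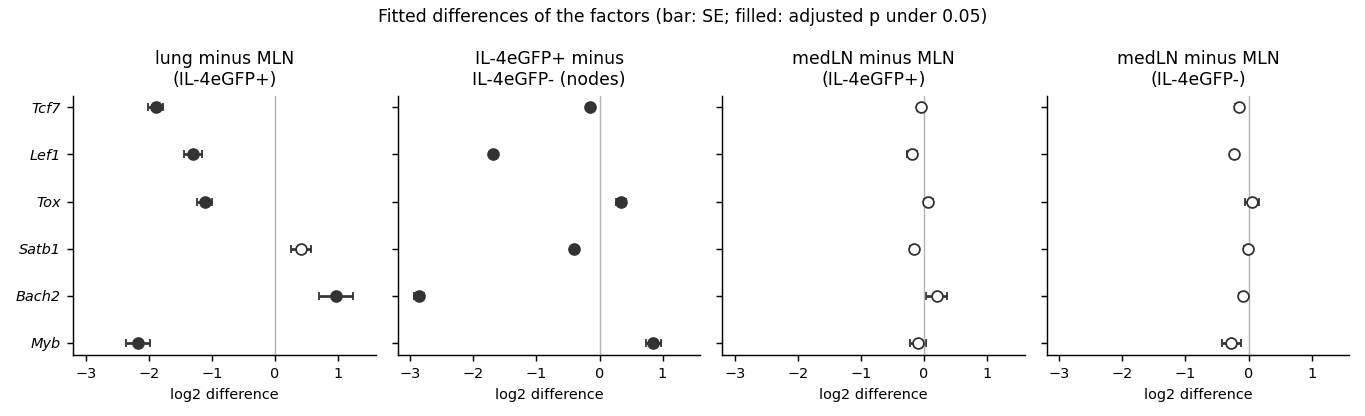
Fitted log2 difference of each factor in 4 comparisons, with bars of 1 SE and filled points for an adjusted p under 0.05. Tcf7, Lef1, Tox and Myb lie left of 0 in lung against MLN, Lef1 (-1.69) and Bach2 (-2.86) lie farthest left between the gates, and no factor is filled between medLN and MLN.

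The cells of each experiment were clustered with the 6 factors and their relatives held out, so that levels by cluster describe cells that other genes grouped. Clusters were named only from listed markers, and the numbers below carry no test. In lung and MLN, Tcf7 was lowest in the effector-like cluster 0 (74.0 CPM, 1144 cells, of which 846 and 295 came from lung 1 and lung 2), led by Cxcl2, Calca and Il5. It was at 68.3 and 92.6 CPM in the cells of lung 1 and lung 2 there, and 12.2% of these cells held a Tcf7 UMI after thinning. Lef1 (34.7 CPM) and Myb (0.896 CPM, 7 UMIs) were low in the same cluster, whereas Tox (93.8 CPM), Satb1 (144 CPM) and Bach2 (9.73 CPM) were not.

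In lung, Tcf7 was near the MLN level in the migrating/naive-like cluster 7, with Ccr7 and S1pr1 among its leading genes. Of its 182 cells, 122 and 57 came from lung 1 and lung 2. Tcf7 was at 630 and 517 CPM in its lung 1 and lung 2 cells, Lef1 at 188 and 200 CPM and Satb1 at 326 and 320 CPM. Its counterpart in MLN, the migrating/naive-like cluster 6, had 487 and 409 CPM of Tcf7 in MLN 1 and MLN 2, and 235 and 255 CPM of Lef1. After thinning, 196 lung 1 cells and 99 lung 2 cells held a Tcf7 UMI. Of these, 87 and 33 were in cluster 7, and 88 and 49 were in the effector-like cluster 0.

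The highest Tcf7 levels in MLN were in cluster 1, which no marker list named (813 CPM, 949 cells), and in the Tfh-like cluster 8 (803 CPM, 177 cells). The Tfh-like cells also had the highest Tox of any cluster, 659 and 745 CPM in MLN 1 and MLN 2, and the lowest Satb1, 19.3 and 13.7 CPM (11 and 3 UMIs). In cluster 2, with Cxcr5, Tigit and Tox2 among its leading genes, Tcf7 was at 739 CPM and Tox at 233 CPM. Cluster 5, an MLN cluster with Ccr9 and Gzma among its leading genes and 3 effector markers, was also low, with Tcf7 at 143 and 151 CPM and Lef1 at 31.8 and 21.0 CPM in MLN 1 and MLN 2. In the innate-like cluster 10 (89 cells), Tcf7 was at 168 and 99.8 CPM and Lef1 at 199 and 138 CPM in MLN 1 and MLN 2.

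Cycling-like cells were the only cluster with many cells from both organs, and so allow the organs to be set side by side in 1 cluster. Cell cycle genes such as Pclaf and Ccna2 led this cluster, so its lung and MLN cells can be unlike in other ways, which was not tested. Tcf7 was at 98.8 and 127 CPM in lung 1 and lung 2 cells of the cycling-like cluster 4 and at 323 and 403 CPM in MLN 1 and MLN 2 cells, and Lef1 at 45.6 and 43.4 CPM against 114 and 123 CPM. Within the cycling-like cluster both factors were therefore lower in both lung samples than in both MLN samples. For cells of TCR clones found in both organs of a mouse (105 and 21 clones), Tcf7 was at 111 and 125 CPM in lung and 503 and 496 CPM in MLN. These were 142 and 32 lung cells and 186 and 22 MLN cells. The order was the same in clones of 1 cell, at 160 and 175 CPM in lung and 592 and 585 CPM in MLN. Larger clones of 1 organ had 69.2 and 87.1 CPM in lung and 607 and 662 CPM in MLN.

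**Figure D3:**
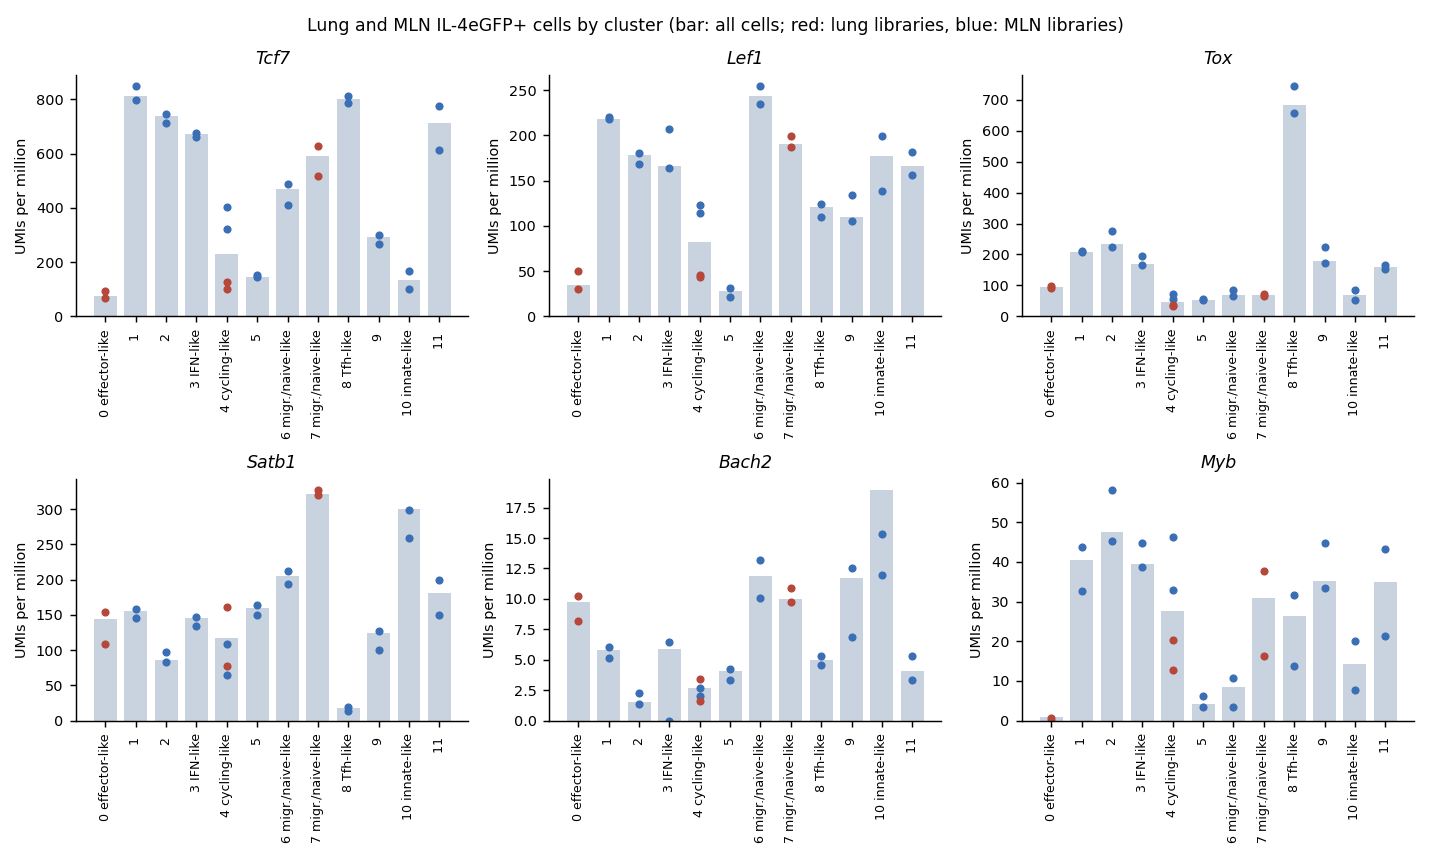
Level of each factor (CPM, linear axes from 0) in the 12 clusters of lung and MLN IL-4eGFP+ cells, with a bar for all cells of a cluster, red points for lung libraries and blue points for MLN libraries of at least 20 cells. Tcf7 is low in the effector-like cluster 0 (74.0 CPM), the innate-like cluster 10 (135 CPM) and cluster 5 (147 CPM), and Tox stands out in the Tfh-like cluster 8 (683 CPM).

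In the nodes the effector-like cluster 10 (418 cells, all IL-4eGFP+, with Il13 and Il5 among its leading genes) again had the lowest Tcf7, 69.2 CPM, and the lowest Lef1, 34.9 CPM. Satb1 stayed at 239 CPM there and Myb was at 7.34 CPM. Cells of the naive-like clusters 0 and 1, nearly all IL-4eGFP-, had Tcf7 at 525 and 636 CPM, Lef1 at 592 and 644 CPM and Bach2 at 110 and 135 CPM. The Treg-like cluster 3 (1419 cells, with Foxp3 as its leading gene) had less of Tcf7 (211 CPM) and Lef1 (246 CPM) than the naive-like cells, and Bach2 at 65.6 CPM. The Tfh-like cluster 8 had Tcf7 at 849 CPM and Tox at 247 CPM and Satb1 at 114 CPM. As in the Tfh-like cells of the first experiment, Tox was high and Satb1 low against the other clusters.

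The highest Tcf7 of a node cluster over 100 cells was in cluster 2 (962 CPM, 2551 of 2710 cells IL-4eGFP+). No list named this cluster, although 4 of 5 Tfh markers were over 2 times the other cells, with 0 of them among its top 10 genes. Its IL-4eGFP+ cells had 985 CPM of Tcf7 and its 159 IL-4eGFP- cells 681 CPM. Bach2 was lower in IL-4eGFP+ than in IL-4eGFP- cells within each of the 11 clusters that held at least 20 cells of both gates, and Lef1 within 10 of them. Some held few cells of a gate, such as 5 to 17 per IL-4eGFP+ sample in cluster 0. The exception for Lef1 was cluster 11, led by immunoglobulin genes, at 202 CPM in IL-4eGFP+ and 104 CPM in IL-4eGFP- cells. In the interferon-responding (IFN-like) cluster 5, Bach2 was at 23.3 CPM in IL-4eGFP+ and 97.3 CPM in IL-4eGFP- cells and Lef1 at 267 and 580 CPM, while Tcf7 went the other way, at 775 and 493 CPM. Finer clustering (resolution 1.2) gave a cluster of 834 cells and another of 440, both drawn most often from cluster 5. Bach2 was at 95.6 and 38.5 CPM in them, Lef1 at 600 and 278 CPM and Tcf7 at 505 and 763 CPM. A cluster can thus hold unlike cells, and their part in the order of the gates was not tested. In the unnamed cluster 9, with Tnfrsf9 and Irf4 among its leading genes, Bach2 was at 38.4 and 125 CPM and Lef1 at 137 and 334 CPM in IL-4eGFP+ and IL-4eGFP- cells. In Treg-like cells Bach2 was at 19.7 and 75.5 CPM and Tcf7 at 212 and 211 CPM. The order of the gates for Tcf7 thus varied from cluster to cluster.

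The larger cycling-like node cluster 7 (888 cells) had the highest Myb of the named clusters, 63.8 CPM, and Tcf7 at 233 CPM. The other cycling-like cluster, 12 (230 cells), had Myb at 19.6 CPM and Tcf7 at 357 CPM. Myb was at 3.23 CPM in naive-like cluster 0. The median depth of the cells of cluster 7 was 13020 UMIs, above that of every other node cluster.

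**Figure D4:**
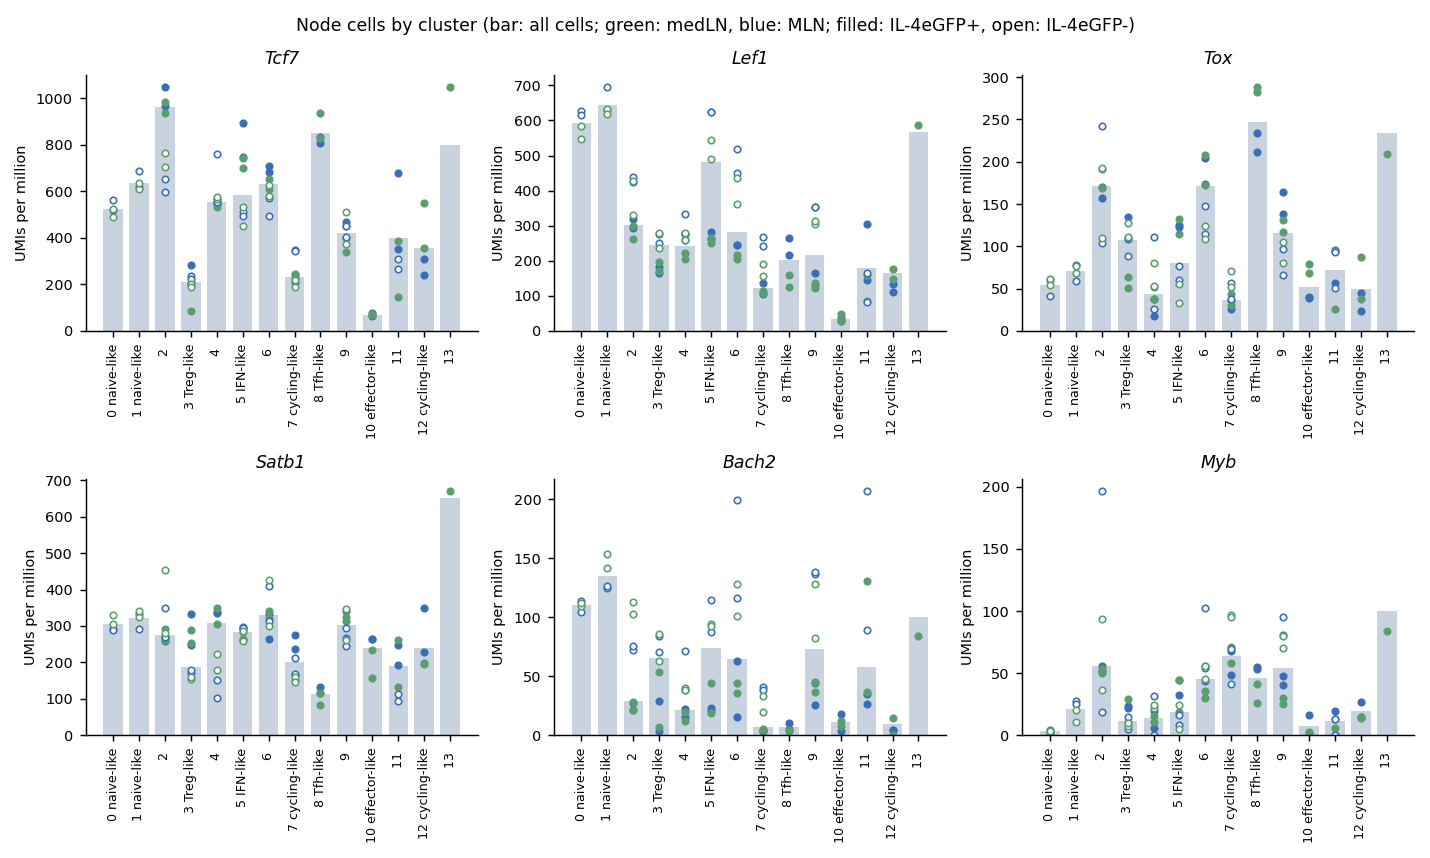
Level of each factor (CPM, linear axes from 0) in the 14 clusters of node cells, with a bar for all cells and points for hashtag samples of at least 20 cells (green medLN, blue MLN, filled IL-4eGFP+, open IL-4eGFP-). Open points lie above filled points for Bach2 in most clusters that hold both, such as cluster 9 (125 against 38.4 CPM over all its cells), with overlap in cluster 11, and for Lef1 with overlap in clusters 4 and 11, and the effector-like cluster 10 is lowest for Tcf7 (69.2 CPM).

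Cells of 1 sample were next split by whether they held a Tcf7 UMI after thinning to 2000 UMIs. Gata3, the lineage factor of Th2 cells, was found in fewer cells with Tcf7 than without it in all 8 IL-4eGFP+ samples. A Gata3 UMI was in 55.1% and 66.7% of lung cells with Tcf7 and in 76.8% and 76.1% of those without, in 23.2% and 25.2% against 33.6% and 38.6% of MLN cells, and in 17.4% to 21.3% against 27.2% to 33.4% of IL-4eGFP+ node cells. Il13, a Th2 effector cytokine, was in 5.61% and 6.06% of lung cells with Tcf7 and 20.3% and 12.9% of those without, and was lower with Tcf7 in all 8 samples. Il4 showed no single direction, at 37.2% to 48.4% with Tcf7 and 38.4% to 44.0% without it in lung and MLN.

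Ccr7, a lymph node homing receptor, was found in 25.5% and 20.2% of lung cells with Tcf7 and in 3.10% and 6.47% of those without. In MLN its shares were near each other, at 6.26% and 6.34% with Tcf7 and 5.68% and 9.06% without. Cxcr5, the homing receptor of Tfh cells, was higher with Tcf7 in all 8 IL-4eGFP+ samples, for example 26.3% and 21.1% against 15.7% and 12.99% in MLN, and lower with Tcf7 in all 4 IL-4eGFP- samples, where 1.41% of cells or fewer held it. Lef1 was more frequent in cells with Tcf7 in all 12 samples and Tox in 11 of 12, the exception being lung 2 (11.1% against 13.3%). These splits are across cells of the same library, which share depth and free RNA, and are given without a test.

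**Figure D5:**
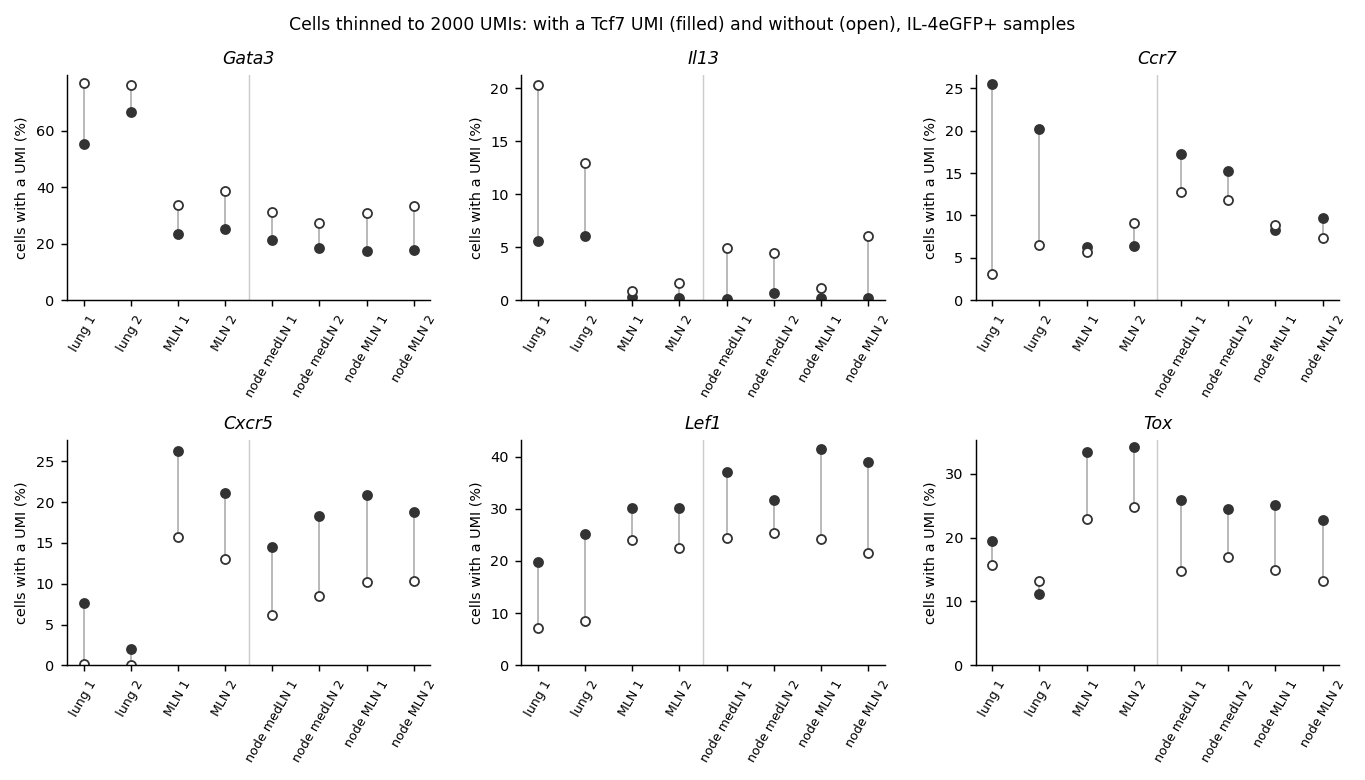
Share of cells (percent, axes from 0) with a UMI of 6 genes among cells with a Tcf7 UMI (filled) and without one (open) in the 8 IL-4eGFP+ samples. Cells were thinned to 2000 UMIs, and those with fewer were left out. The grey line divides the experiments and node stands for the second one. Filled points lie below open points for Gata3 and Il13 in all 8 samples and above them for Cxcr5 and Lef1, and Ccr7 differs most in lung (25.5% against 3.10% in lung 1).

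The number of factors detected in 1 thinned cell also differed between the groups. No factor at all was detected in 47.1% and 47.5% of lung cells, 15.6% and 13.9% of MLN cells, 13.8% to 16.7% of IL-4eGFP+ node cells and 8.23% to 10.1% of IL-4eGFP- node cells. UMIs of 3 factors were found together in 3.75% and 3.92% of lung cells and in 21.9% to 23.1% of IL-4eGFP- cells.

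Relatives of the 6 factors did not move as a block. Of 9 genes of the same families, 4 could be tested in lung against MLN. Tox2, a relative of Tox known from Tfh cells, fell in lung by 2.91 on the log2 scale (SE 0.17, adjusted p = 2.8e-06), with 612 and 2242 UMIs in the MLN libraries and 40 and 163 in the lung libraries. Mybl2, a cell cycle factor, rose by 0.75 (SE 0.22, adjusted p = 0.0282). In the gate comparison 5 were tested, and Tox2 (4.33, SE 0.11, adjusted p = 3.73e-10), Mybl2 (2.81, adjusted p = 1.26e-07) and Mybl1 (1.36, adjusted p = 0.0338, on 57 and 15 UMIs) were higher in IL-4eGFP+ cells and 1, Bach1, was lower. Tox2 was also the 1 relative called between medLN and MLN in IL-4eGFP+ cells (-0.53, adjusted p = 0.0331). The median difference of the tested relatives was 0.19 in lung against MLN and 1.36 between the gates, where that of all genes was -0.0052 and -0.0090. Of all genes, 31% and 62.1% passed in these comparisons.

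Of 20 Wnt pathway genes, some encode partners of TCF-1 and LEF-1. In lung against MLN 15 of the 20 were tested and 1 passed, the beta-catenin kinase gene Gsk3b (0.46, SE 0.12, adjusted p = 0.0188). The median difference was -0.09, and 31% of all genes passed there. Between the gates 3 of 16 were higher and 7 lower in IL-4eGFP+ cells (median -0.22), a share of called genes near the 62.1% of all genes. Tle1, which encodes a corepressor of TCF and LEF factors, was lower by 2.21 (SE 0.16, adjusted p = 4.07e-07), the Wnt coreceptor gene Lrp5 was lower by 1.25 (adjusted p = 0.0242, on 21 and 34 UMIs), and Bcl9l, a beta-catenin cofactor gene, was lower by 0.92 (SE 0.11, adjusted p = 2.79e-05). None of the 15 or 16 tested passed between medLN and MLN in either gate (edgeR).

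Genes of resting and circulating T cells, in which these factors are usually high, split in both directions in lung. Of 15 tested, 4 were higher and 4 lower (median 0.09), where 17% of all genes were higher and 14% lower. This list, like the others here, was chosen with earlier results of these data known. Il7r, the IL-7 receptor alpha chain gene, rose by 2.48 (SE 0.24, adjusted p = 5.86e-05), whereas Id3, an inhibitor of E proteins, fell by 4.75 (SE 0.16, adjusted p = 2.39e-07) and Actn1 fell by 2.07 (SE 0.15, adjusted p = 1.03e-05). Between the gates 13 of 16 were lower in IL-4eGFP+ cells and 2 higher (median -1.45), where 30.3% of all genes were lower and 31.8% higher. Dapl1 (-5.33, SE 0.11), Igfbp4 (-4.52, SE 0.12) and the survival gene Bcl2 (-2.90, SE 0.066) were lowest, at adjusted p = 1.26e-10, 3.73e-10 and 1.82e-10.

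Effector genes were mostly higher in lung and in IL-4eGFP+ node cells. In lung 16 of 17 were higher and 0 lower (median 3.26), where 17% of all genes were higher. They were led by Il5 (845 UMIs in lung against 7 in MLN), the growth factor gene Areg (7.06, SE 0.67, adjusted p = 5.46e-05) and the chemokine receptor gene Ccr8 (6.05, SE 0.24, adjusted p = 4.45e-07). Between the gates 15 of 17 were higher in IL-4eGFP+ cells and 0 lower (median 2.05), where 31.8% of all genes were higher. Il13 and Il5 had 4227 and 438 UMIs in IL-4eGFP+ cells and 0 in IL-4eGFP- cells, which is at least 1134-fold and at least 117-fold higher against a floor of 3 UMIs over the group. Pparg, which encodes a nuclear receptor of Th2 cells, had 449 UMIs against 2, a ratio of 181 (counting interval 49.7 to 1496). A list of Maf and AP-1 factors, which share target letters with BACH2, also held the enzyme gene Hmox1. Of its genes, 9 of 13 were higher and 2 lower in lung (median 1.499). Between the gates 5 of 12 were higher and 4 lower (median 0.17). Of all genes, 31% were called in lung against MLN and 62.1% between the gates. Fosl2 (7.01, adjusted p = 1.92e-06) and Fos (4.38, adjusted p = 0.000156) were higher in lung, and Batf3, with 33 UMIs in MLN and 0 in lung, was at least 6.56-fold lower. Batf3 (3.53) and the heme oxygenase gene Hmox1 (2.80), a known target of BACH factors, were higher in IL-4eGFP+ node cells and Jun was lower (-1.78).

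A list of genes of Tfh cells and coinhibitory receptors, where TCF-1 and TOX are known to act, also held Nr4a1 and Nr4a2. This list split in lung. Of 15, 6 were higher and 6 lower there (median 0.04), and 12 were higher and 1 lower in IL-4eGFP+ node cells (median 1.70). Of all genes, 31% and 62.1% were called in these comparisons. The 5 Tfh markers used to name clusters had 0 higher and 4 lower in lung (median -2.32). In lung Nr4a2 (5.21, adjusted p = 9.46e-07) and Nr4a1 (4.96, adjusted p = 4.45e-07), which encode nuclear receptors induced by TCR signals, were higher. Havcr2 had 107 UMIs in lung against 3 in MLN, a ratio of 59.8 (counting interval 19.9 to 294). The 2 lung libraries held 7 and 100 of these UMIs, and the interval does not cover the spread between mice. The part of the lung digestion in these differences was not tested. Between the gates Il21 (4.89), Cxcr5 (3.25) and Pdcd1 (3.18) were higher in IL-4eGFP+ cells, at adjusted p = 1.81e-08, 4.89e-09 and 4.78e-09. In medLN against MLN, 4 resting genes were higher and 2 lower in IL-4eGFP+ cells, where 1.28% of all genes were called. Among the higher ones were Igfbp4 (1.39, adjusted p = 0.0127) and Ccr7 (0.71, adjusted p = 0.00396), although none of the 6 factors was called there. Of the effector list 3 were higher and 1 lower, with Pparg (1.18, adjusted p = 0.0127), Irf4 (0.81, adjusted p = 0.0283) and Nfil3 (-0.78, adjusted p = 0.0119), and of the Tfh and coinhibitory list Icos was higher (0.29, adjusted p = 0.0335) and Tigit lower (-0.41, adjusted p = 0.0306). In IL-4eGFP- cells Tigit was the only listed gene called (1.24, adjusted p = 0.0152) besides the Treg markers given above.

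The genes whose level over the 12 samples was most like that of a factor were sought among 5131 genes by Pearson's r of log2 CPM centred within each experiment; the samples share libraries and depth, and r is a description. For Tcf7 they were Rflnb (r = 0.996), Sf3b3 (0.991) and Traf5 (0.988), for Lef1 Pdk1 (0.992), Slc44a2 (0.991) and H2-Ke6 (0.986), and for Bach2 Rps26 (0.994), Rps19 (0.991) and Il4ra (0.987). For Tox they were A630023P12Rik (0.980), Ndufc1 (0.979) and Izumo1r (0.9753), for Myb Polr2g (0.982), Dhcr7 (0.982) and Trmt6 (0.976), and for Satb1 Ccny (0.901), Scamp4 (0.890) and Chd2 (0.866). Over the 8 node samples alone the r of Tcf7 with Sf3b3 was 0.238 and with Rflnb 0.578, so their likeness to Tcf7 came mostly from the lung and MLN samples.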

How the data were processed

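Sorted CD4+ T cells were sequenced with the 10x Chromium Single Cell 5' v2 kit. The authors made the deposited UMI counts per gene and cell with Cell Ranger (2.1.1 and 3.0.1 for lung and MLN with 2 sequencing runs combined per library, 6.1.2 for nodes) on mm10 (GRCm38), and no deposited column was left without a sample. Cells over 500 UMIs and 500 genes, under 7% mitochondrial UMIs and over a novelty of 0.8 (log10 genes over log10 UMIs) were kept, in lung and MLN only with paired productive TCR chains and in nodes only as hashtag singlets by HTODemux, which removed hashtag doublets; TCR genes were left out of totals. No doublet caller was run on lung and MLN cells, and cells with extra TCR chains were left out in an alternative. Cells of the same organ, gate and mouse were summed (depths are given with the levels) and tested with edgeR 4.0.16 (filterByExpr, TMM, glmQLFit, glmQLFTest) in R 4.3.3, Benjamini-Hochberg adjusted over all genes tested, with a threshold of 0.05. Replicates are mice; 2 per group limit the precision, and on simulated counts more calls than the nominal share were false in the fits of 4 samples. Same-numbered samples came from the same mouse (correlations of their deviations 0.0398 for lung and MLN and 0.116 to 0.235 in nodes), so a fit with the mouse as block was made. Between the gates this block was the hashtag sample, that is organ and mouse together. Clustering used Seurat 5.3.0 without the 6 factors and their relatives. A cluster took a name when at least 3 markers of a list were over 2 times the other cells and either 1 was among its top 10 genes or all of the list were; of effector and Treg names the one with more markers was kept. Clusters that met this for B cell or myeloid markers, or that were shallow (median under 1/3 of all cells'), stayed unnamed. Named genes are the 6 factors and, per list and comparison, up to 3 called genes of largest difference. Members and lists were chosen with earlier results of these data known. Sequences are RefSeq's, gene positions GENCODE's. Alternatives were DESeq2 1.42.0, other size factors, no filter, other cell sets, and leaving out each sample. Some results for genes of these lists are not reported here.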

Additional observations from a re-analysis of the deposited data

Results flagged for a closer look

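None of the 6 factors met a criterion for a closer look. Among the other genes named, 3 had a medLN against MLN difference in IL-4eGFP+ cells that was unlike that in IL-4eGFP- cells by edgeR's interaction test over 11535 genes. The difference was larger in IL-4eGFP+ cells for Igfbp4 (1.61 on the log2 scale, SE 0.23, adjusted p = 0.0254) and for Ccr7 (0.77, SE 0.072, adjusted p = 0.00267). For Tigit it was lower, at -1.65 (SE 0.20, adjusted p = 0.013). The hashtag samples behind these values were 2 per organ and gate, and gate and library cannot be told apart.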

How the results depend on the processing

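Over all alternatives and named genes, 1105 values were called in the same direction in both fits or called in neither, 80 lost the call, 9 gained it and 5 changed sign with a call in at least 1 of the 2 fits. Sign changes of values called in neither fit are not counted. The 5 were between the gates: Tcf7 (0.18 without cycling, 0.29 without naive-like, and 0.029 without naive-like and Treg-like clusters), Myb (-0.34) and Mybl1 (-0.35), both without naive-like and Treg-like clusters. Settings that left out migrating/naive-like, naive-like or Treg-like clusters or shared barcodes were chosen after seeing the data. In lung against MLN, 3284 genes were called, 1833 with DESeq2, 2039 with equal cells per library and 1907 to 3678 without 1 replicate. In medLN against MLN, IL-4eGFP+ cells had 144 calls, 47 without a low count filter and 13 to 191 without 1 replicate. IL-4eGFP- cells had 19, and 2 without a filter, 4 without B cell or myeloid marker cells, 5 in the fit of all 8 hashtag samples, 8 without naive-like clusters and 98 to 194 without 1 replicate, with 0 to 1 factors called. Between the gates 7162 genes were called, 4075 without naive-like and Treg-like clusters, and 3 factors without naive-like clusters. The interaction had 18 calls, 37 with DESeq2, 68 without a filter, 3 without B cell or myeloid marker cells and 4 to 13 without 1 replicate. The causes were not tested.

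With the mouse as block, 65 genes and 1 factor (Lef1) were called between medLN and MLN in IL-4eGFP- cells, and 6 factors in lung against MLN, where Satb1 was added. The block changed no other call of a factor. Between the gates the block was the hashtag sample, so medLN and MLN of the same mouse were still taken as independent there. Groups of 2 mice, 1 library per gate in the nodes, and the few Bach2 UMIs in lung and MLN limit what these data resolve. So does the different preparation of lung and MLN cells.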

Other observations

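Barcodes that passed the cell filters without paired TCR chains were left out of the comparisons. In these, Tcf7 was at 70.5 and 109 CPM in lung 1 and lung 2 (523 and 208 barcodes) and at 537 and 434 CPM in MLN 1 and MLN 2 (348 and 145 barcodes), so that both lung values were again below both MLN values.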
